A study of Mus musculus with 12 samples.

Results

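The 30 genes described here encode the enzymes that build cholesterol and fatty acids and the proteins that switch those enzymes on. They were taken as a named list of genes known to be controlled by SREBP transcription factors, and all 30 of 30 were found among the 15687 genes of the deposited table. By role they are 7 enzymes of the mevalonate pathway, 11 enzymes that carry squalene to cholesterol, 5 genes of SREBP control and sterol transport, and 7 enzymes of fatty acid synthesis. The first 18 are called sterol synthesis enzymes below.

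RNA was measured in 12 subcutaneous tumors, each grown from 1000000 mTC11 cells suspended in Matrigel and injected into male C57BL6/J mice aged 8 weeks. mTC11 is a mouse lung cancer line, and the tumors were taken and snap-frozen on day 24. The 6 CTL tumors came from cells with a control shRNA (shControl), and the 6 Filip1l-knockdown tumors (Filip1l KD) came from cells with a lentiviral shRNA against Filip1l, kept as mixed clones after puromycin selection. The study made the knockdown with more than 1 shRNA sequence and the labels do not say which one these tumors carry. The hosts were immunocompetent mice of the strain of the cell line, so each tumor also holds stroma, vessels and immune cells of the host. The targeted gene Filip1l averaged 2311 ± 211 (SD) normalized counts over the 6 CTL tumors and 1924 ± 165 over the 6 knockdown tumors, of which 5 lay below every CTL tumor (log2 fold change -0.26, SE 0.073, limma adjusted p = 0.00998). A normalized count is the number of reads on a gene divided by a scaling factor of the tumor, so it compares tumors for 1 gene, and 1 read was worth 0.865 to 1.49 normalized counts. The reads on listed genes numbered 17834745 to 29502069 per CTL tumor and 25460564 to 32419578 per Filip1l-knockdown tumor. The member with the lowest mean, Acss2, still had 214 normalized counts in CTL tumors, far above the 3 reads used as the detection floor.

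Cholesterol is made from acetyl-CoA. The mevalonate pathway turns it into isoprene units and then farnesyl diphosphate, squalene synthase joins a pair of these into squalene, and a long series of oxidations, demethylations and reductions gives cholesterol. Fatty acids start from the same acetyl-CoA, which citrate lyase and acetyl-CoA synthetase supply, and are built by acetyl-CoA carboxylase, fatty acid synthase, elongases and desaturases. Both branches are transcribed under the SREBPs, membrane-bound factors that the escort protein SCAP carries out of the endoplasmic reticulum when sterols are low and that INSIG proteins hold back when sterols are high. SREBP-2, from Srebf2, is best known for the sterol branch, and SREBP-1c, from Srebf1, for the fatty acid branch, which also responds to insulin and to LXR receptors.

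Most of the sterol branch was higher in the Filip1l-knockdown tumors, while the core enzymes of fatty acid synthesis were not. Of the 30 members, 24 were higher at a limma adjusted p under 0.05, 1 was lower (Acly) and 5 did not pass the test (Tm7sf2, Scap, Acaca, Fasn and Scd1). Over all genes tested, 21.1% were called higher and 20.7% lower by the same rule, 41.9% in all, so a call by itself was common in this comparison. The median log2 fold change was 0.48 over the members and 0.01 over all genes. The 6 knockdown values lay above all 6 CTL values for 13 of the 30 members and below them for 0, against 10.6% and 10.9% of all genes. Large changes were few. Insig1 and Acss2 alone passed an absolute log2 fold change of 1 with an adjusted p under 0.05, a rule that called 6.2% of all genes higher and 3.97% lower (10.2% in all).

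**Figure D1:**
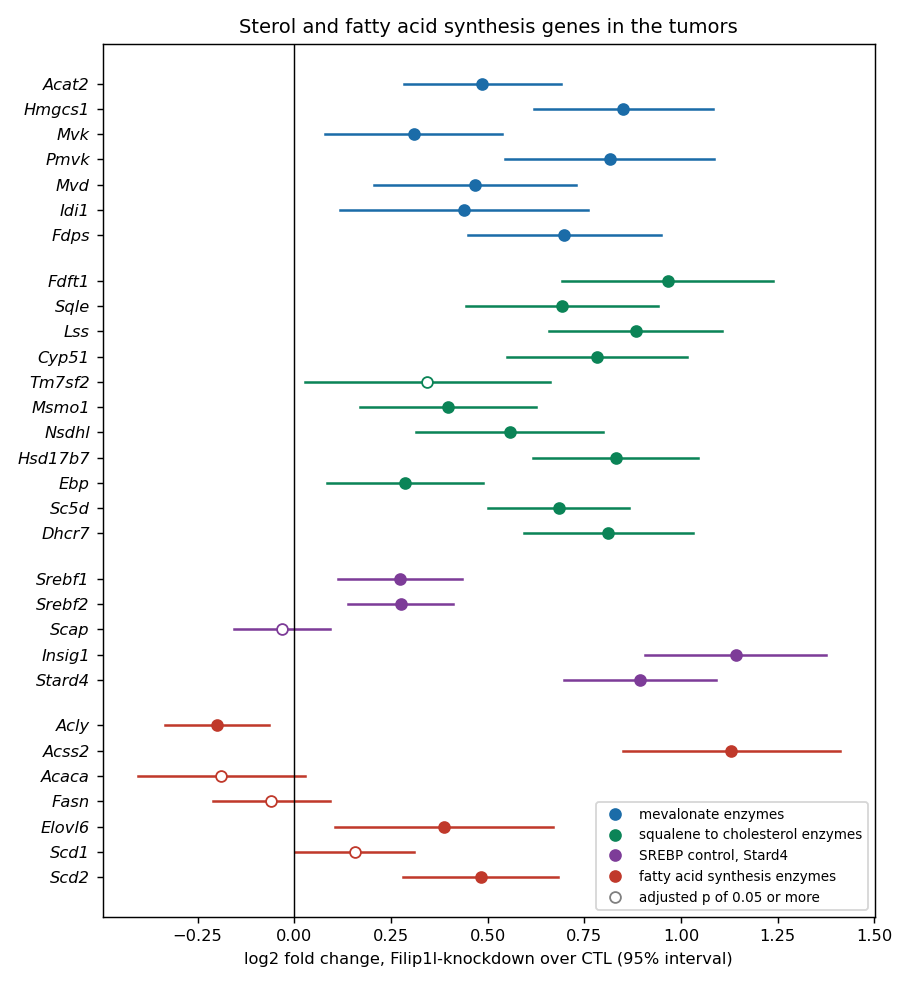
Log2 fold change of the 30 members, Filip1l-knockdown over CTL (6 tumors each), with the 95% interval of the limma fit; filled points passed an adjusted p of 0.05 over all genes and open points did not. The sterol synthesis enzymes lie between 0.29 and 0.97, whereas the fatty acid enzymes range from -0.20 to 1.13.

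The promoters of the members were then read for sequence. The 160 bases before the annotated start are shown for Hmgcs1, Insig1 and Acss2, which were higher, and for Fasn and Acly, which were not, because SREBPs are known to act together with the factors NF-Y and Sp1 at the boxes marked here. The sequences are those of RefSeq on GRCm38.p6, each on the strand of its gene and read 5′ to 3′. Capitals mark the letters CACNCCAC of an SRE-like core, the letters CCAAT of an NF-Y box and the letters GGGCGG of an Sp1 (GC) box, on either strand (GTGGNGTG, ATTGG and CCGCCC on the other).
Hmgcs1, chr13:119690191-119690350, plus strand: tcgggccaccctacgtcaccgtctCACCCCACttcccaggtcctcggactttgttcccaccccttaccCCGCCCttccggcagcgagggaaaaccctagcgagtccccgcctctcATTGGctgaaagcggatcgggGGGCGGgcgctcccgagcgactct
Insig1, chr5:28071252-28071411, plus strand: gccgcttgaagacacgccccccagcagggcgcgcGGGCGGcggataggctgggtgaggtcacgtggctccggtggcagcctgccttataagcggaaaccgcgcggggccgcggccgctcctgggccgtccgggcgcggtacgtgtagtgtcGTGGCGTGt
Acss2, chr2:155517883-155518042, plus strand: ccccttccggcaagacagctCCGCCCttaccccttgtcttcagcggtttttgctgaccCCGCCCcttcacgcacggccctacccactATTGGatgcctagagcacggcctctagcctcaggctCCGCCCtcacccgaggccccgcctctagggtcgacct
Fasn, chr11:120824548-120824707, minus strand: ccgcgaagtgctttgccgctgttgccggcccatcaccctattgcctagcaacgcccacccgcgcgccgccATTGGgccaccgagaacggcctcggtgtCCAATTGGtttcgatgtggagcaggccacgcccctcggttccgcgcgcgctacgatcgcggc
Acly, chr11:100528001-100528160, minus strand: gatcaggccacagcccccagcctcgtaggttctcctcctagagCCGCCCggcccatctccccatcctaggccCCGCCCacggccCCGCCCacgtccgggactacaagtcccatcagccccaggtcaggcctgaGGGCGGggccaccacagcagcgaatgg

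The same letters were counted in windows from 250 bases before to 50 after the start. The RefSeq promoter set used here held such windows for 24 of the 30 members. CCAAT was present for 14 of 15 sterol synthesis enzymes, 3 of 4 genes of SREBP control and transport, and 3 of 5 fatty acid enzymes, against 42.2% of the 11533 genes of the table with a window and 41.1% of all 27025 genes with one. GGGCGG was present for 14 of 15 sterol synthesis enzymes, 4 of 4 control and transport genes and 2 of 5 fatty acid enzymes, against 65.1% and 38.2%. The longer SRE-like letters TCACNCCAC (GTGGNGTGA on the other strand) were in the Hmgcs1 window, starting 137 bases before the start, and in 1.35% of the genes of the table with a window and 1.44% of all genes with one. Their core CACNCCAC, which the longer letters contain, was found for 3 of the 24 members with a window (12.5%), namely Hmgcs1, Insig1 and Acat2. It was found for 2 of 15 sterol synthesis enzymes, and for 7.7% of the genes of the table and 7.12% of all genes. These matches describe letters in a short window and carry no measure of binding. Promoters rich in G and C hold GGGCGG more often, and base composition was not matched between the groups of genes.

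The mevalonate enzymes were all higher in the Filip1l-knockdown tumors, 7 of 7, with a median log2 fold change of 0.49. Hmgcs1 encodes the HMG-CoA synthase that commits acetyl-CoA units to this route. In CTL tumors its normalized count ranged from 4750 through a median of 5151 to 6038, and in knockdown tumors from 6707 through 9934 to 11132. The groups did not overlap, and the lowest knockdown value came from the tumor of replicate 1. The log2 fold change was 0.85 (SE 0.11, adjusted p = 2.7e-05), with an exact two-sided permutation p of 0.00216, the smallest that 924 arrangements of the labels allow. Pmvk, the phosphomevalonate kinase, was 570 ± 87.8 normalized counts in CTL and 1007 ± 169 in knockdown tumors (SD, n = 6 each, log2 fold change 0.82, adjusted p = 0.00015). Fdps, which makes farnesyl diphosphate, was 1806 ± 161 and 2971 ± 562 with no overlap of the groups (0.70, adjusted p = 0.00026).

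The other mevalonate enzymes changed less. Acat2, the cytosolic thiolase that joins the first acetyl-CoA units, had a log2 fold change of 0.49 (SE 0.095, adjusted p = 0.00092). Mvd, the decarboxylase that yields isopentenyl diphosphate, had 0.47 (SE 0.12, adjusted p = 0.0067). In both, 5 of 6 knockdown tumors lay above every CTL tumor. Idi1 encodes the isomerase of the isoprene units, and it was the most scattered of the sterol enzymes, with 650 to 1345 normalized counts in CTL tumors (median 873) and 948 to 1400 in knockdown tumors (median 1202). Only 1 of 6 knockdown tumors lay above the highest CTL tumor, replicate 2, and the log2 fold change of 0.44 (SE 0.15) had an adjusted p of 0.029. Mvk, the mevalonate kinase, had 0.31 (SE 0.11, adjusted p = 0.032).

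The calls of Idi1 and Mvk lay close to the threshold and were lost in several fits without 1 tumor, while the log2 fold changes stayed at 0.35 to 0.56 for Idi1 and 0.26 to 0.39 for Mvk over all 12 such fits. The adjusted p of Idi1 rose to 0.0616, 0.0654 and 0.0585 without CTL replicates 3, 4 and 5, and to 0.0594, 0.0623 and 0.0513 without knockdown replicates 2, 4 and 6. That of Mvk rose to 0.069, 0.0597 and 0.0653 without CTL replicates 1, 5 and 6, and to 0.063, 0.0575, 0.073 and 0.0739 without knockdown replicates 2, 4, 5 and 6.

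**Figure D2:**
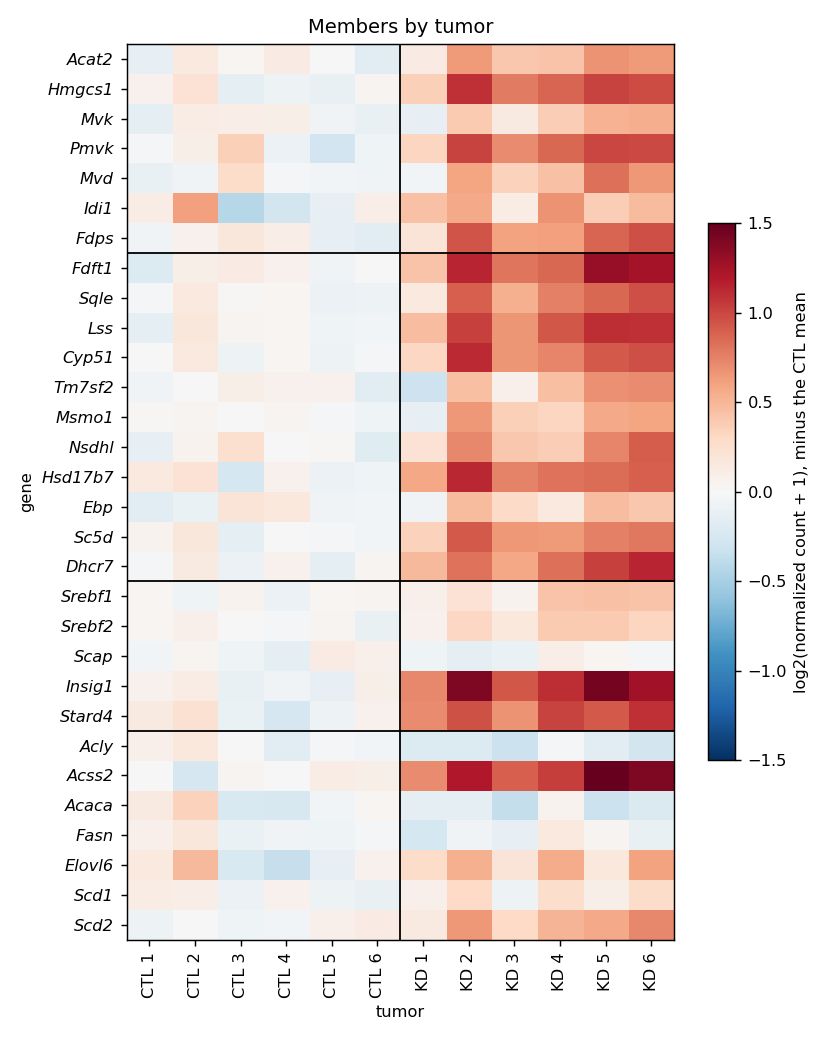
Log2(normalized count + 1) of each member in each tumor minus the mean of the 6 CTL tumors, with red for higher and blue for lower values; black lines part the groups of tumors and, from top to bottom, mevalonate enzymes, squalene to cholesterol enzymes, SREBP control and Stard4, and fatty acid enzymes. Knockdown replicate 1 is the palest of the knockdown tumors in the sterol rows, and Acly, Acaca and Fasn stay near or below 0 in the knockdown tumors.

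From squalene to cholesterol, 10 of 11 enzymes were higher, with a median log2 fold change of 0.69. Fdft1, the squalene synthase, had the largest fitted change of the sterol enzymes. Its normalized count ran from 2576 through a median of 3036 to 3258 in CTL tumors and from 4014 through 6016 to 7381 in knockdown tumors, with a log2 fold change of 0.97 (SE 0.13, adjusted p = 3.7e-05) and no overlap. Part of that change was shared with its chromosome, as described below. Sqle, the squalene epoxidase and a rate-limiting step of the branch, had 3108 to 3646 normalized counts in CTL tumors (median 3306) and 3652 to 6450 in knockdown tumors (median 5792). The lowest knockdown tumor, replicate 1, was 3652 and the highest CTL tumor 3646, so the groups only just separated. The log2 fold change of Sqle was 0.69 (SE 0.12, adjusted p = 0.00027, exact permutation p = 0.00216).

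Lss closes the sterol ring, and Cyp51 removes the first methyl group from lanosterol. Lss was 1348 ± 98.3 normalized counts in CTL and 2514 ± 432 in knockdown tumors (SD, n = 6 each, log2 fold change 0.88, adjusted p = 1.5e-05). Cyp51 was 4028 ± 233 and 7034 ± 1318 (0.78, adjusted p = 5.7e-05). The late enzymes Hsd17b7, Sc5d and Dhcr7 reduce or desaturate sterol intermediates. Their log2 fold changes were 0.83, 0.68 and 0.81, with adjusted p values of 1.6e-05, 2.1e-05 and 2.5e-05. In these 5 enzymes the groups did not overlap either.

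Nsdhl, Msmo1 and Ebp took smaller values. Nsdhl and Msmo1 work on the same C4 demethylation as Hsd17b7. Their log2 fold changes were 0.56 (SE 0.11, adjusted p = 0.0013) and 0.40 (SE 0.11, adjusted p = 0.0077). For Msmo1 the knockdown tumor of replicate 1, at 2916 normalized counts, lay below all CTL tumors (3027 to 3259), while the other 5 lay above them (3959 to 4971). Ebp, the sterol isomerase, had 0.29 (SE 0.094, adjusted p = 0.025). Without CTL replicates 1 and 2 the adjusted p of Ebp was 0.0581 and 0.052, and without knockdown replicates 2, 5 and 6 it was 0.0586, 0.0579 and 0.055.

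Tm7sf2, 1 of the sterol C14 reductases, did not pass the test. Its normalized count was 573 to 683 in CTL tumors (median 661) and 518 to 1058 in knockdown tumors (median 882), where replicate 1 was the lowest of all 12 tumors and 4 of 6 exceeded every CTL tumor. The log2 fold change was 0.34 (95% interval 0.03 to 0.66, adjusted p = 0.077). Without knockdown replicate 1 it was 0.48 with an adjusted p of 0.00209, and 25 members, including 18 of 18 sterol enzymes, were then called higher.

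Of the 5 genes of SREBP control and sterol transport, 4 were higher. Insig1, which holds SCAP back and is itself a target of the SREBPs, had the largest change of the 30 members. Its normalized count was 1328 to 1561 in CTL tumors (median 1451) and 2372 to 3892 in knockdown tumors (median 3285), all 6 knockdown tumors lying above all CTL tumors. The log2 fold change was 1.14 (SE 0.11, adjusted p = 2.4e-06, exact permutation p = 0.00216). Its relative Insig2, no member of the list and named after its value was seen, had 0.07 (adjusted p = 0.40). Stard4, a carrier of free cholesterol between membranes, had 1805 to 2524 normalized counts in CTL tumors (median 2144) and 3426 to 4606 in knockdown tumors (median 4124; log2 fold change 0.89, SE 0.092, adjusted p = 4.1e-06).

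The factors themselves changed by a small amount. Srebf2 was 8715 ± 373 normalized counts in CTL and 10579 ± 959 in knockdown tumors (SD, n = 6 each), higher by 0.28 on the log2 scale (adjusted p = 0.003), and Srebf1 was 4633 ± 195 and 5633 ± 701, with 0.27 (adjusted p = 0.0095). For both, 5 of 6 knockdown tumors lay above every CTL tumor. Scap, the escort, was 2221 ± 146 and 2173 ± 134, with a log2 fold change of -0.03 and a 95% interval of -0.15 to 0.09 (adjusted p = 0.70). The ratio of Insig1 to Scap was 0.550 to 0.701 in CTL tumors and 1.12 to 1.89 in knockdown tumors. These are gene totals, so the transcripts of Srebf1 for SREBP-1a and SREBP-1c were not told apart, and the cleaved, active proteins were not measured.

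**Figure D3:**
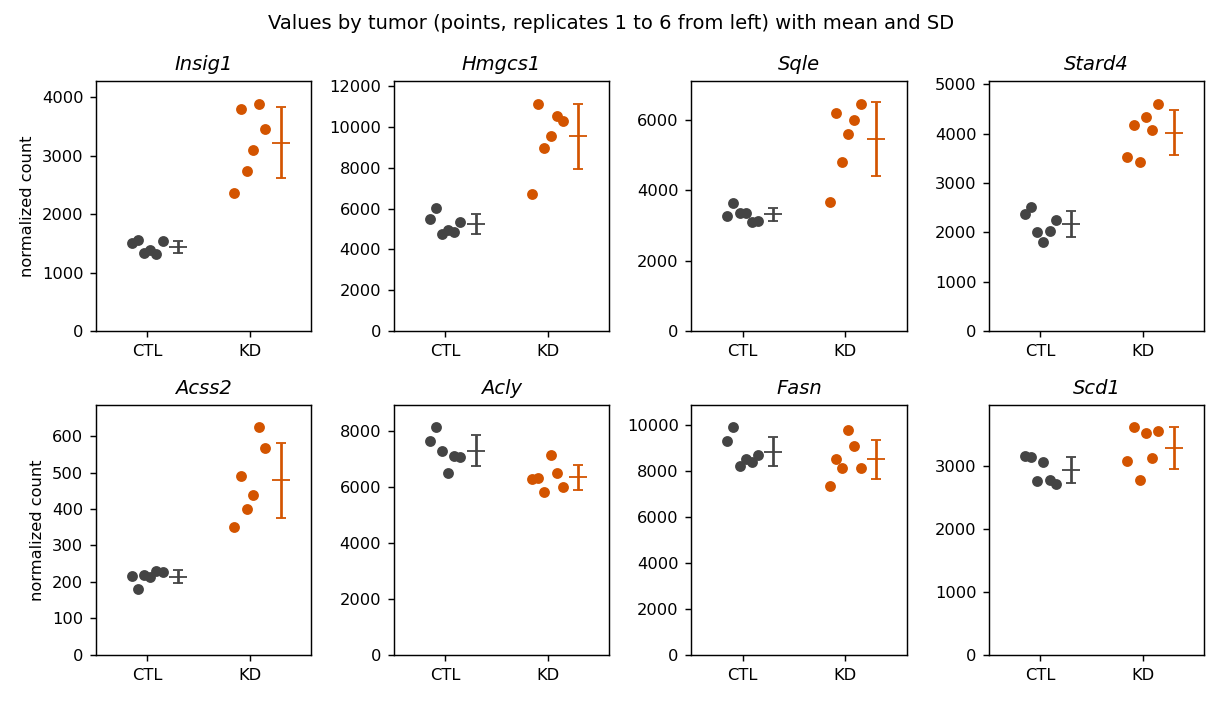
Normalized count of 8 members in each tumor (points, replicates 1 to 6 from left to right) with the mean and SD of each group beside them; every axis starts at 0. Insig1, Hmgcs1, Sqle, Stard4 and Acss2 have no overlap between the groups, whereas Acly, Fasn and Scd1 overlap.

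Fatty acid synthesis was split. Of its 7 enzymes 3 were higher, 1 was lower and 3 did not pass the test. Acss2, which makes acetyl-CoA from acetate, changed about as much as Insig1. It had 180 to 230 normalized counts in CTL tumors (median 217) and 351 to 623 in knockdown tumors (median 465), with no overlap and a log2 fold change of 1.13 (SE 0.13, adjusted p = 1.2e-05). Acly, the citrate lyase that makes the same acetyl-CoA from citrate, went the other way. Its normalized count was 6501 to 8116 in CTL tumors (median 7194) and 5831 to 7129 in knockdown tumors (median 6303), where 5 of 6 lay below every CTL tumor. The log2 fold change of Acly was -0.20 (SE 0.062, adjusted p = 0.019, exact permutation p = 0.0108). The ratio of Acss2 to Acly was 0.0222 to 0.0330 in CTL tumors and 0.0558 to 0.0962 in knockdown tumors.

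The core enzymes did not pass the test. Fasn, the fatty acid synthase, had 8224 to 9876 normalized counts in CTL tumors (median 8590) and 7321 to 9758 in knockdown tumors (median 8326), and its log2 fold change of -0.06 had a 95% interval of -0.21 to 0.09 (adjusted p = 0.54). For Acaca, the carboxylase that commits acetyl-CoA to fatty acids, the log2 fold change was -0.19 with an interval of -0.41 to 0.03 (adjusted p = 0.15). These intervals leave out a rise as large as the median of the sterol enzymes, 0.69. The ratio of Sqle to Fasn was 0.351 to 0.408 in CTL tumors and 0.499 to 0.793 in knockdown tumors.

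Among the elongase and desaturases, Elovl6, which lengthens palmitate, had a log2 fold change of 0.39 (SE 0.13, adjusted p = 0.029). Its adjusted p was 0.0602, 0.065 and 0.0588 without CTL replicates 3, 4 and 5, and 0.0609, 0.0591 and 0.0646 without knockdown replicates 2, 4 and 6. The stearoyl-CoA desaturases Scd1 and Scd2 put the first double bond into saturated fatty acids. Scd2 was 25452 ± 1430 and 35837 ± 5302 normalized counts without overlap (SD, n = 6 each, 0.48, adjusted p = 0.00085). Scd1 was 2940 ± 208 and 3284 ± 334, with a log2 fold change of 0.16 (95% interval 0.00 to 0.31) that did not pass (adjusted p = 0.098), though without knockdown replicate 3 it did, at 0.20 and 0.0278.

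Levels were also compared between members per kilobase of exon. Scd2 had the highest level in both groups, 4658 normalized counts per kilobase in CTL tumors and 6559 in knockdown tumors, and Acss2 the lowest, 21.1 and 47.1. In CTL tumors Scd2 was followed by Acly (1380), Srebf2 (1213) and Hmgcs1 (1139). In knockdown tumors Hmgcs1 came second (2075) with Cyp51 next (1593), and Acly had rank 7 (1201). Insig1 went from rank 15 of 30 to rank 8. These levels use all annotated exons of a gene, so a long rare isoform lowers them.

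Neighbouring or near-identical genes could affect some counts, because the strand setting of the counting is not given in the sources used here. The largest overlap was that of Fdps, with 26.7% of its exon bases shared with the gene model Gm43738 on the same strand. Fdft1 shares 18.3% with Ctsb on the opposite strand, Scap 13.2% with 5830462I19Rik and Hmgcs1 12.1% with Gm48342, both opposite, and Tm7sf2 12.1% with Vps51 on the same strand. Of these neighbours, Ctsb and Vps51 are among the listed genes. The other members share less than 10% with any one gene. Acat2 has a near-identical neighbour, Acat3, in the mouse genome.

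Some members sat on chromosomes whose genes were shifted as a whole. In the knockdown tumors the median gene of chromosome 14, which holds Fdft1, was higher by 0.38 on the log2 scale, from 0.32 to 0.42 over the 6 tumors. The median gene of chromosome 19, which holds Tm7sf2, Scd1 and Scd2, was lower, at -0.35, and that of chromosome 8, which holds Mvd and Msmo1, at -0.20. In CTL tumors the medians of chromosomes 14 and 19 stayed between -0.04 and 0.10, and that of chromosome 8 between -0.11 and 0.12. On every other chromosome the shift was smaller than 0.06 in size.

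With the median of its chromosome removed in each tumor, Fdft1 had a log2 fold change of 0.59 (adjusted p = 0.0013) and was no longer the largest of the sterol enzymes. Tm7sf2 passed at 0.70 (adjusted p = 0.002), Scd1 passed at 0.51 (adjusted p = 7.9e-05), and Scd2, Mvd and Msmo1 moved to 0.84, 0.67 and 0.60. Counted this way, 26 members were higher and 1 was lower, with 18 of 18 sterol enzymes higher and a median of 0.63 over the members. Fasn, Acaca and Acly, all on chromosome 11, had -0.09, -0.22 and -0.23.

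**Figure D4:**
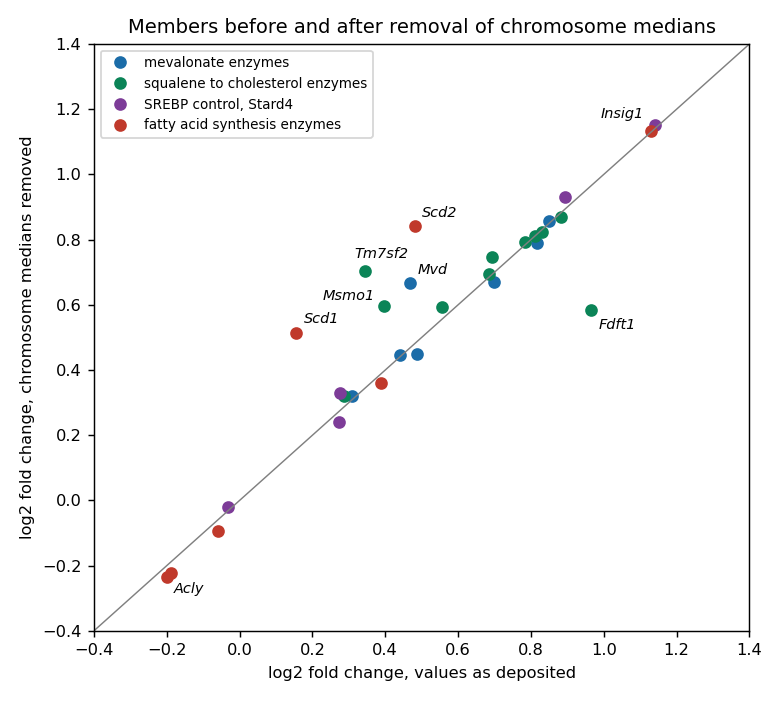
Log2 fold change of the 30 members with the values as deposited (horizontal) and with the median of the genes of the same chromosome removed in each tumor (vertical); the grey line marks equal values. Fdft1 drops from 0.97 to 0.59, Tm7sf2, Scd1 and Scd2 on chromosome 19 and Mvd and Msmo1 on chromosome 8 climb, and the other members stay near the line.

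The sterol enzymes varied together among the tumors, with both groups pooled. With the group means removed, the median Pearson correlation over the 153 pairs of sterol enzymes was 0.81 across the 12 tumors, against 0.46 for the 21 pairs of fatty acid enzymes and about 0 (-0.003) for all pairs of genes. Idi1 was the exception, with a median of 0.07 with the other 17 sterol enzymes. It went instead with Elovl6 and Acaca, at 0.89 to 0.94 within these 3 genes, all 3 being highest among CTL tumors in replicate 2. Of the genes of SREBP control and sterol transport, Insig1 (0.76) and Srebf2 (0.69) had the highest medians with the sterol enzymes. Srebf1 and Stard4 (0.48 and 0.46) and then Scap (-0.03) followed. Among the fatty acid enzymes, Scd2 had 0.75, Acss2 0.69, Fasn 0.50, Acly 0.11 and Acaca -0.08. Most of these medians were lower without 1 tumor, knockdown replicate 1. In its absence, an alternative added after the values were seen, the median over the sterol pairs was 0.61 across 11 tumors and that of the fatty acid pairs 0.44. Insig1 then had 0.58, Srebf2 0.36, Srebf1 0.23, Stard4 0.31, Scd2 0.48, Acss2 0.44 and Fasn 0.10, and Idi1, Elovl6 and Acaca still correlated at 0.91 to 0.95. The points share the tumors and the scaling. The mean log2 deviation of the 18 sterol enzymes had an SD of 0.246 among knockdown and 0.0738 among CTL tumors. The knockdown tumors therefore weigh more in the pooled correlations, and neither group was correlated by itself.

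Knockdown replicate 1 stood apart in level. The mean log2 deviation of the 18 sterol enzymes from the CTL mean was between -0.07 and 0.12 in CTL tumors. In knockdown replicates 1 to 6 it was 0.21, 0.81, 0.49, 0.62, 0.81 and 0.83. Replicate 1 was the lowest knockdown tumor for 17 of 18 sterol enzymes and for 22 of 30 members, although it was still above the CTL tumors in this mean. Over all genes it also stood apart from its group, with a mean distance of 93.9 to the other knockdown tumors against 75.5 among those.

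Its cell markers differed as well. The summed normalized counts of 8 macrophage markers were 65660 in knockdown replicate 1 and 24292 to 37014 in the other knockdown tumors (CTL 27225 to 37197). Those of 7 fibroblast markers were 252720 against 74885 to 157962 (CTL 160012 to 260347). Those of 6 epithelial markers were 215093 against 293963 to 394086. The part of this difference in the sterol values was not tested.

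Epithelial markers also moved with the comparison. Their sum was 149310 to 196100 in CTL tumors and 215093 to 394086 in knockdown tumors. Epcam, Krt7, Krt8, Krt18 and Krt19 were higher (5 of 6), and Cdh1 was at a log2 fold change of 0.01 (limma adjusted p = 0.95). Cdh1 lies on the shifted chromosome 8, and with chromosome medians removed it had 0.21 (limma adjusted p = 0.029). Within the knockdown group the 3 tumors with the highest epithelial sums, replicates 2, 5 and 6, also had the 3 highest sterol means, and replicate 1 had the lowest of both. Within the CTL group the sterol means showed no such order, since the highest, replicate 2, had the lowest epithelial sum but 1. In bulk tumors, more cells of a type and more RNA of a gene per cell cannot be told apart, and the part of cell make-up in the sterol values was not tested.

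**Figure D5:**
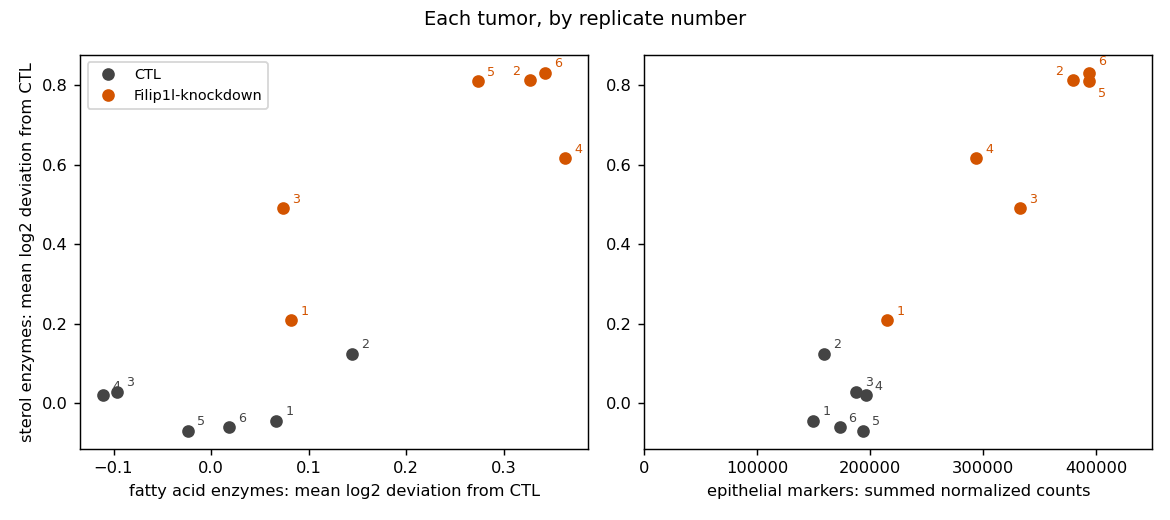
Mean log2 deviation of the 18 sterol synthesis enzymes from the CTL mean (vertical) against that of the 7 fatty acid enzymes (left) and against the summed normalized counts of 6 epithelial markers (right), 1 point per tumor with its replicate number. Knockdown tumors reach 0.83 on the vertical axis and CTL tumors at most 0.12, and knockdown replicate 1 lies nearest to the CTL tumors in both panels.

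Other cells that make or store lipid were followed by their markers. Of 9 listed adipocyte markers, 5 were higher and 0 lower, with a summed count of 1907 to 2463 in CTL tumors and 3566 to 8490 in knockdown tumors. Of the 8490, in knockdown replicate 3, 4987 came from Car3, which muscle also expresses, and that tumor had the highest sum of skeletal muscle markers too. Without Car3, which was left out after the values were seen, the sums were 1658 to 2151 in CTL tumors and 2354 to 3511 in knockdown tumors. The 5 markers called higher were Cidea (log2 fold change 2.59, limma adjusted p = 5.4e-06), Car3 (2.00), Cidec (1.15), Fabp4 (1.02) and Pparg (0.59). Adipoq, Plin4, Cfd and Lipe did not pass. Pparg, at 1058 ± 213 normalized counts in CTL and 1621 ± 416 in knockdown tumors, was the largest part of the sums without Car3. Plin1, Lep, Retn and Adig are not among the listed genes, and Adipoq was 12.7 ± 11.0 and 20.3 ± 7.6 (SD, n = 6 each). The part of adipocytes in the members' values was not tested. Enterocyte markers, which include genes of lipid absorption, were higher for 8 of 9, and 1 of 8 sebaceous gland markers was listed and did not pass the test. The hepatocyte list had 1 of 6 higher.

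Of the remaining lists, neutrophil markers were higher for 6 of 6, skeletal muscle markers for 8 of 9 and macrophage markers for 1 of 8. Fibroblast markers were lower for 2 of 7 and epidermal markers for 2 of 5. Of 5 lung epithelial markers listed 2 were higher and 1 lower. Sftpb (log2 fold change 2.80, limma adjusted p = 0.046) and Napsa (0.88, adjusted p = 0.0025) were higher, and Foxj1 (-1.85, adjusted p = 9.8e-06) was lower. Nkx2-1 and Sftpc did not pass and were low in both groups. They had 17.2 ± 14.3 and 9.76 ± 21.2 normalized counts in CTL tumors, and 39.4 ± 40.9 and 29.2 ± 25.9 in knockdown tumors (SD, n = 6 each). Cell cycle genes were lower for 2 of 9 (Mcm2 and Mcm5) and higher for 0.

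The rest of both pathways was read from further lists. Of 18 other genes of sterol synthesis and SREBP control, 5 were higher and 4 lower, with a median log2 fold change of 0.05. Among the lower ones, and named here after their values were seen, were Mbtps1, the protease that makes the first cut in the SREBPs, at -0.56, and Erlin1 and Erlin2, which take part in sterol-dependent breakdown of proteins of the endoplasmic reticulum, at -0.40 and -0.18. These 3 lie on the shifted chromosomes 8 or 19. With chromosome medians removed, Mbtps1 remained lower at -0.37 (adjusted p = 0.00023), whereas Erlin1 and Erlin2 came to -0.05 and 0.02 and did not pass.

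Of 21 other fatty acid genes in the table (23 listed), 11 were higher and 1 was lower, with a median of 0.22. The largest changes were in regulators and low-abundance genes. Mlxipl, which encodes the glucose-responsive factor ChREBP, went from 36.7 ± 17.6 to 151 ± 22.9 normalized counts (log2 fold change 2.13, adjusted p = 2.2e-05). Pnpla3, a lipid droplet protein, went from 13.7 ± 4.23 to 37.9 ± 10.2 (1.41, adjusted p = 0.00077), and Acacb, the mitochondrial acetyl-CoA carboxylase, from 34.1 ± 10.3 to 81.9 ± 34.3 (1.20, adjusted p = 0.0024; SD, n = 6 in each). The gene called lower, named after its value was seen, was Acsl3, an acyl-CoA synthetase, at -0.60 (adjusted p = 3.6e-06). Among the LXR receptors and targets 1 of 7 was higher, the phosphodiesterase gene Smpdl3a at 1.24 (adjusted p = 3e-06). The LXR genes Nr1h2 and Nr1h3 were at 0.11 and -0.11 and did not pass.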

How the data were processed

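RNA of 12 tumors (6 CTL, 6 Filip1l-knockdown) was sequenced by the authors from libraries made with the NEBNext Ultra II RNA kit. The submitters' processing notes name bcl2fastq 2.20, Trimmomatic 0.36, STAR 2.5.2b, featureCounts of Subread 1.5.2, DESeq2 and the build mm10. The deposited values are a normalized signal, since the authors divided the reads per gene by a DESeq2 size factor for each tumor. Such values are not corrected for gene length, and a gene whose reads map poorly is understated in all tumors alike. Count tests were not run on them, so limma replaced the test of the authors. The lowest mean of any listed gene was 9.28, and genes with few reads are not among those listed.

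Values were analysed as log2(normalized count + 1), with a filter at a mean of 5 that removed 0 genes. The test was limma (version 3.58.1, R version 4.3.3), which let the variance follow the mean, and p-values were adjusted by Benjamini-Hochberg over all 15687 genes. Fold changes on this scale understate low genes. The test was first checked on simulated data with known changes. Exact permutation tests were two-sided over all 924 arrangements of the labels. The labels call the tumors biological replicates. Symbols, positions and exons came from GENCODE vM21 on GRCm38 and promoters from RefSeq on GRCm38.p6. The promoter set used here had no entry for Fdft1, Fdps, Scd1, Scd2, Sqle and Stard4. Chromosome medians used genes with a mean of at least 50. Plots were made in Python 3.11.15 (matplotlib 3.10.9).

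The 30 genes and all other lists were chosen with earlier results of these data known. All 30 are named, and genes of other lists are named where they passed an adjusted p of 0.05 with an absolute log2 fold change over 1. Exceptions are marked, marker genes are named for the check of cell types, and a few results for single genes are not reported here. The alternatives were other pseudocounts, filters and scalings, no variance trend, a block on replicate number, chromosome medians removed and each tumor left out. The detection floor from reads covers counting error only. The intervals are those of the limma fit, so they rest on the spread among the tumors. The labels name no sequencing batch.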

Additional observations from a re-analysis of the deposited data

Results flagged for a closer look

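In 60 groups of 6 tumors (each member in each group), the highest or lowest tumor was compared with the rest by Dixon's criterion at the 95% level, which chance passes in about 1 of 20 groups. It was passed 2 times. Mvd in CTL replicate 3, at 1077 normalized counts, was the highest of the CTL tumors, with a gap to the next of 0.799 of the range. Acss2 in CTL replicate 2, at 179.9 normalized counts, was the lowest of the CTL tumors, with a gap of 0.686 of the range. Neither value changed the call of its gene when that tumor was left out.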

How the results depend on the processing

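Of the 25 members called, 22 kept call and direction under all 9 alternatives that used all tumors, 21 in all 12 fits without 1 tumor, and 20 in both. Scaling to the same total left 22 members higher, since Idi1 and Elovl6 came to adjusted p values of 0.054 and 0.0546. Replicate numbers did not pair the tumors (correlations of -0.269 to 0.0990 within a number). With the replicate block 24 members were higher, 0 were lower (Acly, adjusted p = 0.0545) and 5905 genes were called against 6566. Without 1 tumor, members called higher ranged from 20 to 25, sterol enzymes from 14 to 18, the members' median from 0.44 to 0.56, and genes called from 5889 to 6931. The calls lost were those of Mvk, Idi1, Ebp and Elovl6, and no called member changed direction. Genes that did not pass may still differ within their intervals.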
